A study of Mus musculus with 24 samples.

Results

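The genes described here are 10 marker genes of tumour-associated macrophages: Apoe, C1qa, C1qb, C1qc, Mrc1, Trem2, Spp1, Gpnmb, Folr2 and Adgre1. The list was one of gene names, drawn up with earlier results of these data known, and all 10 were matched by symbol among 54446 gene identifiers. The libraries came from CD11b+ myeloid cells sorted from MC38 tumors, a transplanted mouse colon carcinoma. The hosts were adult C57BL/6J mice carrying loxP-flanked Ythdf2 alleles (Ythdf2 fl/fl), and YTHDF2 is a reader protein that binds N6-methyladenosine (m6A) in RNA. WT mice lacked Cre, and cKO mice carried Cre at the Lyz2 locus (Lyz Cre+), which is active in macrophages, monocytes and neutrophils. Tumors received no irradiation (Ctrl) or 20 Gy in 1 dose (IR), with cells taken 3 days later. Each of the 4 combinations was represented by 3 Input libraries (polyadenylated RNA) and 3 IP libraries (RNA fragments bound by an m6A antibody), which makes 8 groups and 24 libraries. The methods describe replicates as technical, each made from cells of several pooled mice, but state this for mice without Cre only. Where peak calling is described, they speak of biological replicates, so the kind of replicate is not settled. The SD, SE and p-values given here therefore measure the spread between libraries.

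Macrophages take up dying cells and lipid, present antigen and clear complement-coated debris, and in tumors they arise largely from blood monocytes. The 10 genes mark different states of these cells. C1qa, C1qb and C1qc encode the A, B and C chains of C1q, the molecule that starts the classical complement pathway. Mrc1 encodes the mannose receptor CD206, and Folr2 a folate receptor of tissue-resident macrophages. Trem2 encodes a lipid-sensing receptor, Apoe a lipid-carrying apolipoprotein and Gpnmb a lysosomal glycoprotein, and these are typical of lipid-loaded macrophages. Spp1 encodes the secreted adhesion protein osteopontin, and Adgre1 encodes the F4/80 antigen, a general marker of mouse macrophages.

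On the GRCm38 (mm10) build the chains of C1q lie side by side on the minus strand of chromosome 4: C1qb at chr4:136880129-136886187, C1qc at chr4:136889804-136893065 and C1qa at chr4:136895917-136898803. Apoe lies at chr7:19696109-19699188 and Folr2 at chr7:101839988-101857194, both on the minus strand. Mrc1 (chr2:14229392-14332057), Trem2 (chr17:48346401-48354147), Spp1 (chr5:104435118-104441050), Gpnmb (chr6:49036546-49070929) and Adgre1 (chr17:57358691-57483527) lie on the plus strand. A gene of the same strand, Gm42793, overlaps Spp1, and the microRNA gene Mir511 lies within Mrc1. Whether exons of these genes overlap, which would keep reads from being assigned to Spp1 or Mrc1 alone, was not checked. Folr2 overlaps Gm10602 and Gm45319 on the opposite strand.

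Antibody peaks, which the authors called in each IP library, were found over 4 of the 10 members: C1qa, C1qb, Mrc1 and Spp1. The share of all genes with a peak was not counted, so this number is not read as low or high. Shown here are 5 stretches over C1qa, C1qb and Mrc1, around the motif GGACT, or GGAC where no GGACT was present, within 50 bases of a consensus summit, because m6A is known to be deposited preferentially at such motifs. They lie in coding sequence, are written 5′ to 3′ in the sense of the transcript and come from GRCm38, and the capitals mark the motif. After each position stand the groups, as labelled, with a consensus peak there.
C1qa exon 3, chr4:136896584-136896612, minus strand, WT Ctrl: agcggcccccaaGGACTgaagggcgtgaa
C1qb exon 3, chr4:136880699-136880727, minus strand, WT Ctrl: aggcgattctggGGACTacggggctacac
Mrc1 exon 5, chr2:14257015-14257043, plus strand, 3 groups without WT Ctrl: tccttgagctcgGGACTctggattggact
Mrc1 exon 9, chr2:14271266-14271293, plus strand, 4 groups: tggatactgggcGGACagagcctgtgag
Mrc1 exon 22, chr2:14315264-14315292, plus strand, 4 groups: ctttcaatgcctGGACTgggctgaatgat
Read on the strand of the transcript, the motif GGACT was present in 3 of the 15 windows, reaching 50 bases to each side of consensus summits, over the members in WT Ctrl, and GGAC, which includes GGACT, in 6 of 15. Among all 12181 consensus windows of WT Ctrl these shares were 11.4% and 35.3%. In the other groups the members' shares for GGACT were 11.1% for the libraries labelled WT IR, 15.8% for cKO Ctrl and 15% for those labelled cKO IR, against 11.2%, 11.4% and 12% of all windows. For GGAC they were 25.9%, 31.6% and 30.0%, against 35.6%, 35.1% and 36.5%. A match describes the letters in the window and does not locate a methylated base.

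Input libraries held 65.2M to 83.7M gene counts and IP libraries 68.8M to 86.4M (M stands for 1e6), and levels are given in CPM, counts per 1e6 after scaling. The Cre locus was used to check the genotype labels. Lyz2 stood at 20586 ± 294 CPM in WT Ctrl Inputs and at 299.8 ± 3.95 CPM in cKO Ctrl Inputs (SD, n = 3 each), and the IR Inputs showed the same separation by genotype. In the IP libraries of irradiated tumors, the libraries labelled WT IR held 98.5 ± 1.45 CPM and those labelled cKO IR held 21134 ± 138 CPM of Lyz2, which goes against both labels. These IP groups are therefore named here as labelled, and the main tests that involve them use the mean of both IR groups, which is the same whichever group is which. Values for either IR IP group by itself rest on the labels, which are in doubt. Ythdf2 itself, the deleted gene, did not fall in cKO Inputs. By edgeR its log2 difference from WT was 0.88 ± 0.04 in cKO Ctrl (SE, adjusted p = 6e-13) and 1.08 ± 0.04 in cKO IR (adjusted p = 1.6e-14). Counts per gene can include exons outside the deleted part, so they do not check the deletion, and the names WT and cKO follow the labels throughout.

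The Inputs were rich in macrophage transcripts. The 7 general macrophage markers, among them Csf1r, Cd68, Mertk, Fcgr1, Cx3cr1 and Aif1, were detected in every group and also differed between groups. They summed to 3037 to 3080 CPM in WT Ctrl, 2514 to 2574 in WT IR, 3449 to 3518 in cKO Ctrl and 2413 to 2500 in cKO IR. Markers of other myeloid cells were also present and moved with the groups. The summed level of 8 neutrophil markers was 2682 to 2778 CPM in WT Ctrl, 687 to 727 in WT IR, 1181 to 1206 in cKO Ctrl and 564 to 569.8 in cKO IR. The 8 monocyte markers summed to 1173 to 1219, 555 to 586, 1116 to 1127 and 844 to 864 CPM in the same order. The 7 dendritic cell markers summed to 1161 to 1220, 1592 to 1798, 1240 to 1274 and 1624 to 1667 CPM, with Xcr1 at 0 in WT IR and cKO Ctrl and Cd209a at 0 in WT IR. The 4 myeloid progenitor markers had mean sums of 54.0, 0.105, 16.8 and 0.141 CPM and the 5 eosinophil and mast cell markers 24.1, 2.20, 11.3 and 1.94 CPM, with Elane at 0 in WT IR, Epx at 0 in WT IR and Mcpt4 at 0 in all Inputs. Erythroid markers reached 22.0 to 24.1 CPM in WT IR and at most 0.0593 CPM in the other Inputs. Markers of T and NK cells, B cells, epithelial cells, fibroblasts and endothelial cells summed to at most 8.10 CPM per list, with Krt19 and Cldn5 at 0 in all Inputs. The part of these cell types in the changes described below was not tested. In sorted bulk cells, fewer macrophages and less RNA of a gene per macrophage cannot be told apart.

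Apoe and Gpnmb were the most abundant members in Input RNA per length, and Folr2 was close to absent. In WT Ctrl the level per kilobase of merged exons was 1130 ± 34.2 CPM per kb for Apoe, 476.7 ± 2.25 for Gpnmb, 361 ± 4.91 for C1qb, 241 ± 6.36 for Spp1 and 189.6 ± 4.64 for Adgre1 (SD, n = 3 each). C1qc followed at 109 ± 4.13 and C1qa at 65.0 ± 1.15 CPM per kb. By merged exons, Mrc1 (33.3 ± 1.23) and Trem2 (33.2 ± 1.15) did not differ beyond their spread, and every other neighbouring pair was separated by more than the SDs. This order depends on the length used. Trem2 has 4946 bases of merged exons, but its transcript with the longest coding sequence has 1056. For Mrc1 these lengths are 6371 and 5374 bases, so the place of Trem2 in the order is not settled. Folr2 had 3 to 23 counts per Input library and a mean of 0.115 ± 0.07 CPM per kb in WT Ctrl. With so few counts, no change of Folr2 was detectable in any Input comparison.

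**Figure D1:**
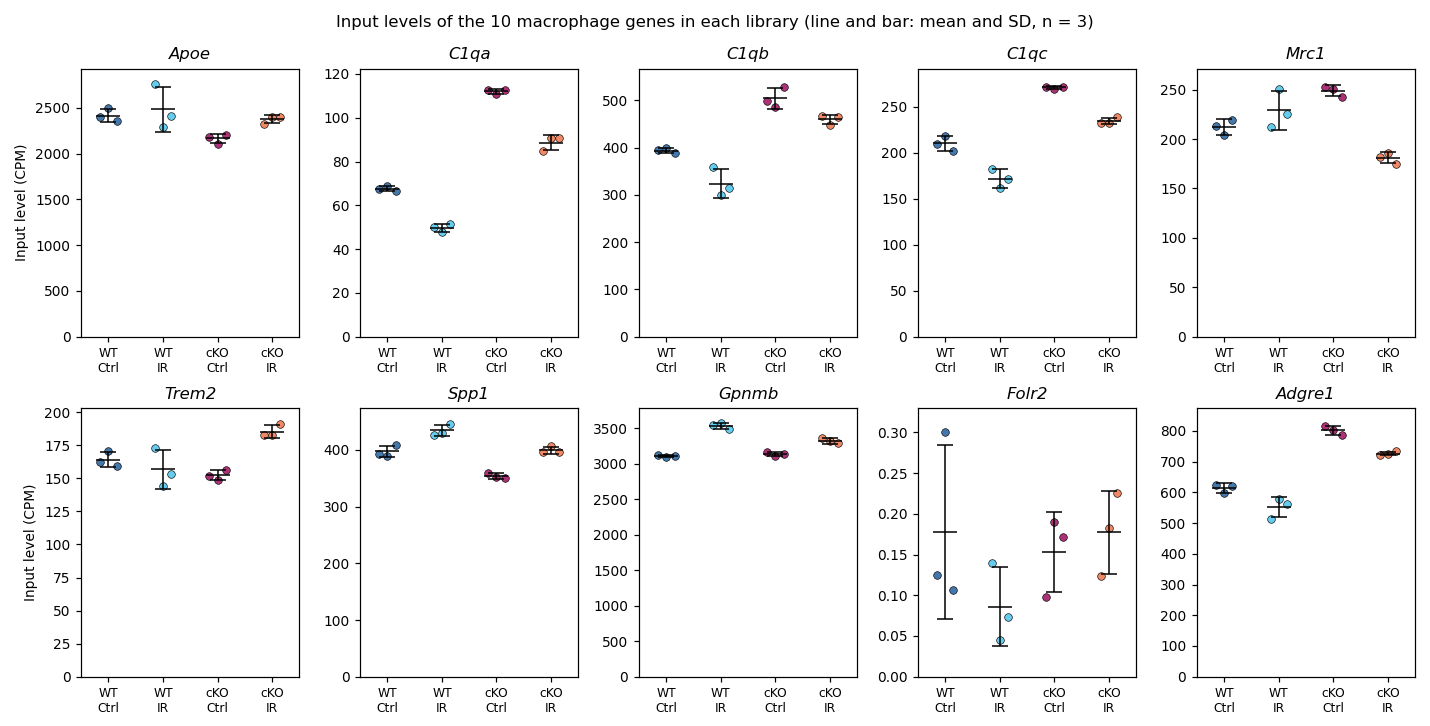
Input level of each member in CPM (y axis, from 0) in the 12 Input libraries, grouped by genotype and treatment (x axis). Points are libraries, and the horizontal line with its bar gives the mean and SD (n = 3). The C1q chains and Adgre1 are highest in cKO Ctrl and lowest in WT IR, whereas Mrc1 is highest in cKO Ctrl and lowest in cKO IR.

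Irradiation in WT mice was examined first. The complement genes and Adgre1 fell, Spp1 and Gpnmb rose slightly, and Apoe, Mrc1, Trem2 and Folr2 did not pass the test. C1qa was at 67.4, 68.8 and 66.5 CPM in WT Ctrl and at 49.9, 47.9 and 51.5 CPM in WT IR. All irradiated libraries lay below all unirradiated ones, and the log2 fold change was −0.44 ± 0.04 (SE, edgeR quasi-likelihood test, adjusted p = 3.5e-08), or 1.36-fold lower. C1qb went from 394, 398 and 387 CPM to 358, 299 and 314 CPM, a change of −0.28 ± 0.05 (adjusted p = 0.00012). C1qc went from 210, 218 and 202 CPM to 183, 162 and 171 CPM, a change of −0.29 ± 0.04 (adjusted p = 8.2e-06). The groups did not overlap for any of the C1q chains. Adgre1 was at 623, 597 and 622 CPM before and at 514, 577 and 563 CPM after irradiation, with a log2 change of −0.15 ± 0.04 (adjusted p = 0.0022).

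Gpnmb and Spp1 moved the other way in WT. Gpnmb stood at 3121, 3093 and 3103 CPM in WT Ctrl and at 3537, 3568 and 3486 CPM in WT IR, a log2 rise of 0.18 ± 0.02 (adjusted p = 1.4e-06). Spp1 rose from 393, 390 and 409 CPM to 427, 431 and 446 CPM, by 0.13 ± 0.03 (adjusted p = 0.0027). These groups did not overlap, although the rises amounted to 1.14-fold and 1.09-fold. Apoe had overlapping groups, at 2396, 2496 and 2354 CPM against 2756, 2285 and 2409 CPM (0.04 ± 0.05, adjusted p = 0.57). In all, 2 members were called higher and 4 lower, which is 6 of 10, beside 31.7% of the 16090 genes tested. The members' median change was −0.11 and that of all genes 0.01. WT IR replicate 1 had the highest value of its group for Apoe, C1qb, C1qc and Trem2 and the lowest for Mrc1. Without it Mrc1 (0.17, adjusted p = 0.00084) and Trem2 (−0.14, adjusted p = 0.0023) also passed.

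In cKO mice the C1q chains and Adgre1 were also lower after irradiation, and in addition Mrc1 fell and Trem2 rose. Mrc1 was at 253, 251 and 243 CPM in cKO Ctrl and at 182, 186 and 175 CPM in cKO IR. The log2 change of −0.46 ± 0.05 (adjusted p = 1.1e-07) was the largest fall among the members in this comparison. Trem2 rose from 152, 149 and 156 CPM to 183, 183 and 191 CPM, by 0.28 ± 0.05 (adjusted p = 7.6e-05), and the groups of neither gene overlapped. C1qa fell from 113, 111 and 113 CPM to 84.9, 90.6 and 90.5 CPM (−0.34 ± 0.04, adjusted p = 4.5e-07), and C1qc fell by 0.21 ± 0.04 on the log2 scale (adjusted p = 0.00019). C1qb (−0.13 ± 0.05, adjusted p = 0.027) and Apoe (0.13 ± 0.05, adjusted p = 0.021) passed by a small margin. C1qb lost its call without cKO Ctrl replicate 1 or 3 or cKO IR replicate 2 or 3 (adjusted p of 0.051 to 0.15), and Apoe without cKO Ctrl replicate 2 or cKO IR replicate 2 or 3 (adjusted p of 0.068 to 0.094). Spp1 rose by 0.17 ± 0.03 (adjusted p = 8.4e-05), Gpnmb by 0.08 ± 0.02 (adjusted p = 0.004), and Adgre1 fell by 0.14 ± 0.04 (adjusted p = 0.0026). Thus 4 members were called higher and 5 lower, or 9 of 10, beside 45.6% of all genes tested, with a median change of −0.03 against 0.01 for all genes.

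Whether irradiation acted differently in the genotypes was tested by the interaction, the change in cKO minus the change in WT. It was called for 3 members, beside 30.2% of all genes: Mrc1 (−0.57 ± 0.07, adjusted p = 2.4e-06), Trem2 (0.35 ± 0.07, adjusted p = 0.00068) and Gpnmb (−0.10 ± 0.03, adjusted p = 0.017). For Mrc1 the irradiated libraries were all below the unirradiated ones in cKO and overlapped with them in WT. For the C1q chains the falls in WT and cKO did not differ past the threshold, with differences of 0.10 ± 0.06 for C1qa, 0.15 ± 0.07 for C1qb and 0.08 ± 0.06 for C1qc (adjusted p of 0.19, 0.12 and 0.3). Apoe (0.09 ± 0.06, adjusted p = 0.31), Spp1 (0.05 ± 0.04, adjusted p = 0.48), Adgre1 (0.01 ± 0.05, adjusted p = 0.9) and Folr2 (1.24 ± 0.86, adjusted p = 0.31) did not pass either. The median difference was 0.09 over the members and 0.00 over all genes. This comparison depended on WT IR replicate 1: without it 6 members were called, and C1qb (0.22, adjusted p = 0.00011), C1qc (0.13, adjusted p = 0.024) and Apoe (0.17, adjusted p = 0.00025) were added. Gpnmb lost its call without cKO Ctrl replicate 1 (adjusted p = 0.052).

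The genotypes differed before irradiation mainly in the complement genes and Adgre1, which were higher in cKO. C1qa showed the largest difference among the members, at 113, 111 and 113 CPM in cKO Ctrl against 67.4, 68.8 and 66.5 CPM in WT Ctrl (log2 0.73 ± 0.04, 1.66-fold, adjusted p = 5.9e-11). C1qb stood at 499, 485 and 528 CPM against 394, 398 and 387 CPM (0.36 ± 0.05, adjusted p = 1.9e-05). C1qc stood at 272, 269.8 and 271 CPM against 210, 218 and 202 CPM (0.37 ± 0.04, adjusted p = 1.1e-06). The C1q chains therefore differed by unequal amounts, and C1qa made up 12.6% ± 0.23 of the summed C1q counts in cKO Ctrl and 10.1% ± 0.05 in WT Ctrl (SD, n = 3 each). Adgre1 was at 816, 803 and 787 CPM in cKO Ctrl against 623, 597 and 622 CPM in WT Ctrl (0.39 ± 0.04, adjusted p = 1.6e-07). Mrc1 was also higher, by 0.23 ± 0.05 (adjusted p = 0.0018).

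Spp1 and Apoe were lower in cKO Ctrl than in WT Ctrl, by small amounts. Spp1 differed by −0.17 ± 0.03 (adjusted p = 0.00066) and Apoe by −0.16 ± 0.05 (adjusted p = 0.022), and Apoe no longer passed when WT Ctrl replicate 1 or 2 or cKO Ctrl replicate 1 or 2 was left out (adjusted p of 0.057 to 0.11). Gpnmb did not differ past the threshold (0.01 ± 0.02, adjusted p = 0.76), and neither did Trem2 (−0.11 ± 0.05, adjusted p = 0.16). The Trem2 groups nevertheless did not overlap, at 162, 170.5 and 159.5 CPM in WT Ctrl against 152, 149 and 156 CPM in cKO Ctrl, and Trem2 passed when only these 6 Inputs were fitted (adjusted p = 0.0035) or without WT IR replicate 1 (adjusted p = 0.013). With 5 members higher and 2 lower, 7 of 10 were called beside 15.7% of all genes tested. Split by direction, 8.05% of all genes were called higher and 7.61% lower. The members' median difference was 0.12, and that of all genes was 0.00.

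Among irradiated tumors the C1q chains and Adgre1 were again higher in cKO, and Mrc1 was lower. C1qa stood at 84.9, 90.6 and 90.5 CPM in cKO IR against 49.9, 47.9 and 51.5 CPM in WT IR (0.83 ± 0.04, 1.78-fold, adjusted p = 2.1e-12). C1qb differed by 0.50 ± 0.05 (adjusted p = 3.5e-08), C1qc by 0.45 ± 0.04 (adjusted p = 1.2e-08) and Adgre1 by 0.40 ± 0.04 (adjusted p = 1.6e-08), without overlap of the groups. Mrc1, which was higher in cKO before irradiation, was lower after it, at 182, 186 and 175 CPM against 212, 250.5 and 225 CPM (−0.34 ± 0.05, adjusted p = 5.8e-06). Trem2 differed by 0.24 ± 0.05, with cKO IR above WT IR (adjusted p = 0.00042). Spp1 (−0.12 ± 0.03, adjusted p = 0.0029) and Gpnmb (−0.09 ± 0.02, adjusted p = 0.0024) were slightly lower, and Gpnmb did not pass when only these 6 Inputs were fitted (adjusted p = 0.062). Apoe did not differ past the threshold (−0.06 ± 0.05, adjusted p = 0.27), but passed without WT IR replicate 2 (−0.12, adjusted p = 0.011). In this comparison 8 of 10 members were called, 5 higher and 3 lower, beside 47.7% of all genes, and the medians were 0.32 for the members and 0.00 for all genes. The 4 Input comparisons share groups with each other, so their values are given side by side and are not independent.

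**Figure D2:**
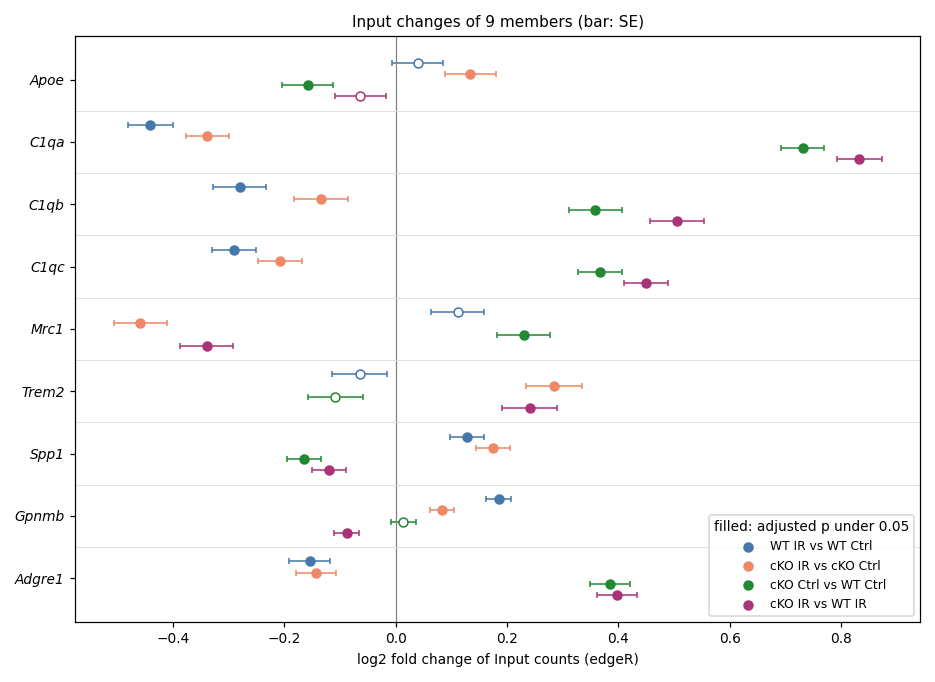
Log2 fold change of Input counts (x axis) for 9 members (rows; Folr2 is left out for its low counts) in 4 comparisons, shown by colour. Points are edgeR estimates with SE bars, and filled points had an adjusted p under 0.05. C1qa lies at 0.73 and 0.83 in the genotype comparisons and at −0.44 and −0.34 in the irradiation comparisons, and Mrc1 changes sign between the genotype comparisons (0.23 and −0.34).

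The members fell into patterns that other genes shared across the 12 Inputs. Correlations are given as descriptions over log2 CPM of 12 libraries that belong to 4 groups of 3, which share group and depth, and carry no p. C1qa was closest to Oas3, Dse and Lgals3bp (Pearson r of 0.99 each), C1qb to Cfp, Lrrc25 and Fcgr1 (r 0.99 each), and C1qc to Cfp, Dok2 and Lmo2 (r 0.99 each). Adgre1 was closest to Tlr1, Irak3 and Aoah (r 0.99 each). Cfp encodes properdin of the alternative complement pathway, and Fcgr1 encodes a high-affinity receptor for IgG. Among the members, C1qa was close to C1qc (r 0.98), Adgre1 (r 0.97) and C1qb (r 0.96) and far from Spp1 (r −0.90). Mrc1 and Trem2 ran in opposite directions (r −0.96). Mrc1 was closest to Zcchc2 (r 0.98), Spaca6 (r 0.97) and mt-Nd1 (r 0.96), and Trem2 to H2afj (r 0.98), Bsg (r 0.98) and Rplp1 (r 0.97). Spp1 was closest to Gclm (r 0.98), Cat (r 0.97) and Gm9042 (r 0.96), and Gpnmb to Adcy6 (r 0.99), Bmp2k (r 0.98) and Ndrg4 (r 0.98). Apoe had no partner as close, with Prr13 (r 0.92), Brap (r 0.89) and Acot2 (r 0.89) at the top of its list. For Folr2 the closest genes were 1700003F12Rik and Gm10250 (r 0.90 each) and Fam207a (r 0.90), at its level of a few counts.

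Genes that work with the members were read from 5 further lists. Their counts stand beside the shares of all genes called higher and lower. These were 14.7% and 17% for irradiation in WT, and 21.8% and 23.8% for irradiation in cKO. They were 8.05% and 7.61% for cKO Ctrl against WT Ctrl, and 23.9% and 23.8% for cKO IR against WT IR. For the interaction they were 15% and 15.2%. The medians of all genes lay between 0.00 and 0.01 in each. Of 13 complement genes that act with C1q, 11 were tested, and 9 of them were higher and none lower in cKO Ctrl than in WT Ctrl, with a median difference of 0.38 against 0.00 for all genes. They included the proteases C1s1 (1.23 ± 0.26, adjusted p = 0.0024) and C1ra (0.49 ± 0.06, adjusted p = 4.7e-06), which form the C1 complex with C1q, factor B (Cfb, 0.98 ± 0.15, adjusted p = 7.3e-05) and the C3a receptor C3ar1 (0.38 ± 0.04, adjusted p = 3.4e-07). After irradiation, 6 of 11 fell and 1 rose in WT, and 5 fell and none rose in cKO (medians −0.17 and −0.15). C3, the central complement component, fell in both WT (−0.51 ± 0.03, adjusted p = 6.7e-12) and cKO (−0.48 ± 0.03, adjusted p = 1.4e-11). The C5a receptor C5ar1 fell by 0.31 ± 0.04 in WT (adjusted p = 9.7e-07) and by 0.55 ± 0.04 in cKO (adjusted p = 1.6e-10).

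General macrophage genes form the second list. Of 10 such genes, 7 fell and 2 rose with irradiation in WT, and 7 fell and none rose in cKO, with medians of −0.18 and −0.21 and all-gene shares called lower of 17% and 23.8%. Cx3cr1, the fractalkine receptor, fell most among the 10 in both (−1.31 ± 0.04, adjusted p = 5.9e-15 in WT and −1.14 ± 0.04, adjusted p = 5.3e-14 in cKO), and Csf1r, the receptor for the macrophage growth factor CSF1, fell by 0.32 ± 0.03 (adjusted p = 3.3e-08) and 0.64 ± 0.03 (adjusted p = 1.3e-12). In cKO Ctrl 6 of 10 were higher than in WT Ctrl and none lower, beside 8.05% and 7.61% of all genes. Fcgr1 (0.74 ± 0.07, adjusted p = 1.4e-07) and the lipopolysaccharide co-receptor Cd14 (0.53 ± 0.04, adjusted p = 1.3e-09) led them. In cKO IR against WT IR, 5 of the 10 were higher and 4 lower, beside 23.9% and 23.8% of all genes. Fcgr1 at 1.25 ± 0.07 (adjusted p = 2.1e-11) was among the higher ones.

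The third list holds genes that usually accompany C1q and Folr2 in resident-type macrophages. Of its 15 genes 13 were tested, and 3 rose and 3 fell with irradiation in WT, with 4 and 3 in cKO. These counts are near the shares of all genes (14.7% higher and 17% lower in WT, 21.8% and 23.8% in cKO), and the medians were −0.10 and −0.02. Pf4, a platelet-type chemokine that macrophages also make, rose in WT (0.47 ± 0.04, adjusted p = 2.1e-09) and cKO (0.89 ± 0.04, adjusted p = 2.5e-13), whereas the scavenger receptor gene Stab1 fell in cKO (−0.60 ± 0.05, adjusted p = 1.2e-09). In cKO Ctrl against WT Ctrl 6 of the 13 were higher and 2 lower, beside 8.05% and 7.61% of all genes. Siglec1, a sialic acid receptor (0.92 ± 0.06, adjusted p = 1.6e-09), and the transcription factor gene Maf (0.57 ± 0.04, adjusted p = 4.8e-10) differed most. In cKO IR against WT IR 9 were higher and 2 lower, beside 23.9% and 23.8% of all genes. Selenop (0.63 ± 0.03, adjusted p = 1e-11) was among the higher ones.

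The fourth list holds genes of lipid-associated macrophages, the state to which Trem2, Gpnmb and Apoe belong. Of 16 tested, 8 rose and 4 fell in WT (median 0.09), beside 31.7% of all genes called, and 10 rose and 3 fell in cKO (median 0.27), beside 45.6%. In cKO the fatty acid binding proteins Fabp5 (0.64 ± 0.05, adjusted p = 2.3e-09) and Fabp4 (0.57 ± 0.04, adjusted p = 1e-09) and Tyrobp (0.45 ± 0.04, adjusted p = 4.6e-08), the signalling adaptor of Trem2, were higher after irradiation. The interaction was higher for 10 of the 16 and lower for 2, beside 15% and 15.2% of all genes, with Fabp4 at 0.66 ± 0.06 (adjusted p = 1.4e-07), Tyrobp at 0.62 ± 0.06 (adjusted p = 4e-07) and the cholesterol exporter gene Abca1 at −0.77 ± 0.04 (adjusted p = 5.7e-11). Of 7 receptors of osteopontin, 6 were lower in cKO IR and 1 was higher, set against WT IR (median −0.37), beside 23.8% of all genes lower and 23.9% higher, among them the integrin genes Itgb3 (−0.48 ± 0.11, adjusted p = 0.00097) and Itgb5 (−0.43 ± 0.05, adjusted p = 1.5e-06).

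The IP libraries gave a different picture of the same genes. Spp1 and Mrc1 were enriched by the antibody in all groups, while Apoe, Adgre1 and Gpnmb were strongly depleted. Spp1 counts in WT Ctrl corresponded to 393, 390 and 409 CPM in Input and 1111, 1119 and 1089 CPM in IP, on scales set within each library type. The fitted log2 ratio of IP over Input for Spp1 was 1.27 ± 0.02 in WT Ctrl (SE, edgeR over 24 libraries, adjusted p = 3.2e-30), 1.15 ± 0.02 in cKO Ctrl (adjusted p = 4.3e-29) and 1.67 ± 0.02 in the mean of both IR groups (adjusted p = 7.6e-38). Mrc1 was at 388, 385 and 376 CPM in WT Ctrl IP, 645, 609 and 611 CPM in cKO Ctrl IP, 907, 894 and 937 CPM in the IP labelled WT IR and 534, 529 and 536 CPM in the IP labelled cKO IR. Its ratios were 0.64 ± 0.04 in WT Ctrl (adjusted p = 2.3e-16), 1.10 ± 0.04 in cKO Ctrl (adjusted p = 7.6e-23) and 1.55 ± 0.03 in the mean of both IR groups (adjusted p = 2e-31). Ratios given below for both IR groups are values of this mean.

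**Figure D3:**
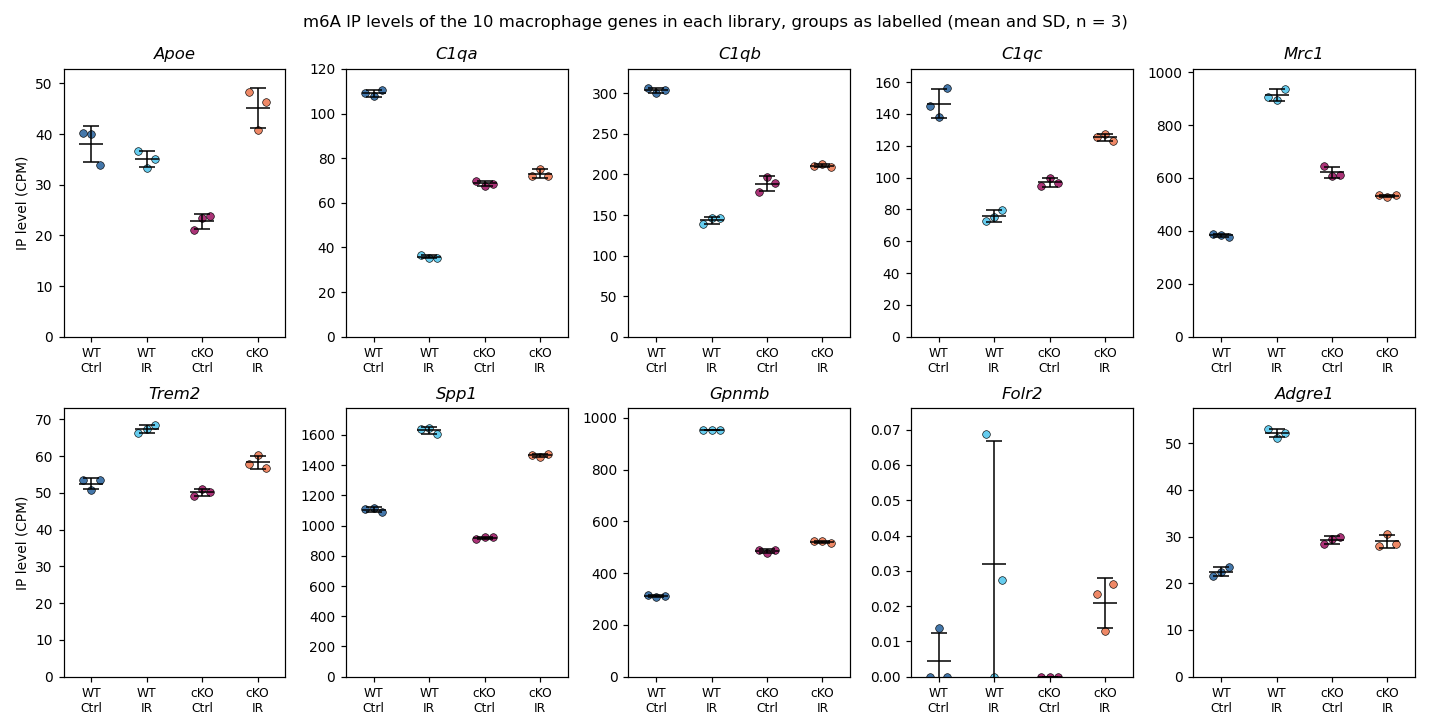
IP level of each member in CPM (y axis, from 0, scaled within the 12 IP libraries) by group as labelled (x axis). Points are libraries, and the line with its bar gives the mean and SD (n = 3). Mrc1, Gpnmb and Adgre1 are highest in the group labelled WT IR, and C1qa, C1qb and C1qc are highest in WT Ctrl.

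Apoe, the most abundant member per kilobase in Input, was strongly depleted in the IP libraries. Its IP level was 33.9 to 40.2 CPM in WT Ctrl, against an Input level of 2354 to 2496 CPM. The log2 ratio was −6.20 ± 0.07 in WT Ctrl (adjusted p = 1.5e-36), and 0.99% of all genes tested had a lower ratio. In cKO Ctrl it was −6.79 ± 0.07 (adjusted p = 4.3e-37), and in both IR groups −6.16 ± 0.05 (adjusted p = 4.2e-41). Adgre1 had 21.7, 22.4 and 23.5 CPM in WT Ctrl IP and ratios of −4.98 ± 0.04 in WT Ctrl (adjusted p = 1.6e-39), −5.00 ± 0.04 in cKO Ctrl (adjusted p = 9.9e-40) and −4.25 ± 0.03 in both IR groups (adjusted p = 7.2e-43). Gpnmb had 315, 307 and 313 CPM in WT Ctrl IP and ratios of −3.53 ± 0.02, −2.91 ± 0.02 and −2.51 ± 0.01 in the same order (adjusted p of 1.4e-43, 2.4e-41 and 8.4e-45). Trem2 was depleted to a lesser degree, at −1.86 ± 0.05 in WT Ctrl (adjusted p = 2.8e-27), −1.82 ± 0.05 in cKO Ctrl (adjusted p = 4.7e-27) and −1.67 ± 0.03 in both IR groups (adjusted p = 1.3e-30).

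The C1q chains lay between these extremes and differed between genotypes. In WT Ctrl, C1qa was at 109, 108 and 111 CPM in the IP libraries and its ratio was 0.48 ± 0.04 (adjusted p = 3.4e-14), whereas C1qb (−0.58 ± 0.04, adjusted p = 4.3e-14) and C1qc (−0.73 ± 0.04, adjusted p = 4.4e-17) were below 0. In cKO Ctrl all 3 chains were depleted, at −0.93 ± 0.04 for C1qa (adjusted p = 5e-22), −1.64 ± 0.04 for C1qb (adjusted p = 3.4e-26) and −1.70 ± 0.04 for C1qc (adjusted p = 4.6e-27). In the mean of both IR groups the ratios were −0.60 ± 0.03, −1.37 ± 0.03 and −1.27 ± 0.03 (adjusted p of 1e-20, 1.5e-28 and 5.7e-28). This mean does not give the ratio of either genotype. C1qa stood at 35.9 ± 0.67 CPM in the IP labelled WT IR and at 73.0 ± 1.98 in that labelled cKO IR. Its Input stood at 49.8 ± 1.79 CPM in WT IR and 88.7 ± 3.28 in cKO IR (SD, n = 3 each). With the labels in doubt, the sign of its ratio in each irradiated genotype cannot be told. Folr2 had 40 Input and 1 IP count over the 3 replicates of WT Ctrl, and 36 Input and 0 IP counts in cKO Ctrl. Against a floor of 3 counts over the group this is at least 11.2-fold lower in cKO Ctrl IP, and the fitted ratios of Folr2 are not interpreted. In WT Ctrl 3 members were called higher and 7 lower, beside 75.5% of 17373 genes called (38.1% higher and 37.5% lower). In cKO Ctrl 2 were higher and 8 lower, beside 73.7% (37.8% and 36%), and in both IR groups 2 were higher and 8 lower, beside 80.3% (40.1% and 40.2%). By label, where the IP of one genotype may be set over the Input of the other because of the conflict at Lyz2, 2 were higher and 7 lower in the group labelled WT IR, beside 73.5% (37% and 36.5%), and 2 were higher and 8 lower in the group labelled cKO IR, beside 73.8% (36.9% and 36.9%). The median ratio of the members was −1.29 in WT Ctrl, −1.76 in cKO Ctrl and −1.52 in the mean of both IR groups, against 0.02, 0.02 and 0.00 for all genes. The median of cKO Ctrl was the same with Folr2 set at its bound.

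These ratios are relative to the scaling of the libraries. Scaling on genes without a consensus peak in any group moved the median of all genes to 0.56 in WT Ctrl, 0.55 in cKO Ctrl and 0.48 in both IR groups. The share of higher genes among the called ones then moved from 50.4% to 69.7%, from 51.2% to 70.8% and from 49.9% to 69.3%. Under this scaling C1qb in WT Ctrl was at −0.04 and no longer called (adjusted p = 0.38), and the other members kept their direction and call in these groups. In the fit by label, with the same doubt, C1qa in the group labelled cKO IR turned from −0.49 to 0.01. With only the 12 Ctrl libraries fitted, an alternative chosen after the labels of the IR IP libraries were seen to conflict with Lyz2, all 10 members were again called in WT Ctrl and in cKO Ctrl.

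**Figure D4:**
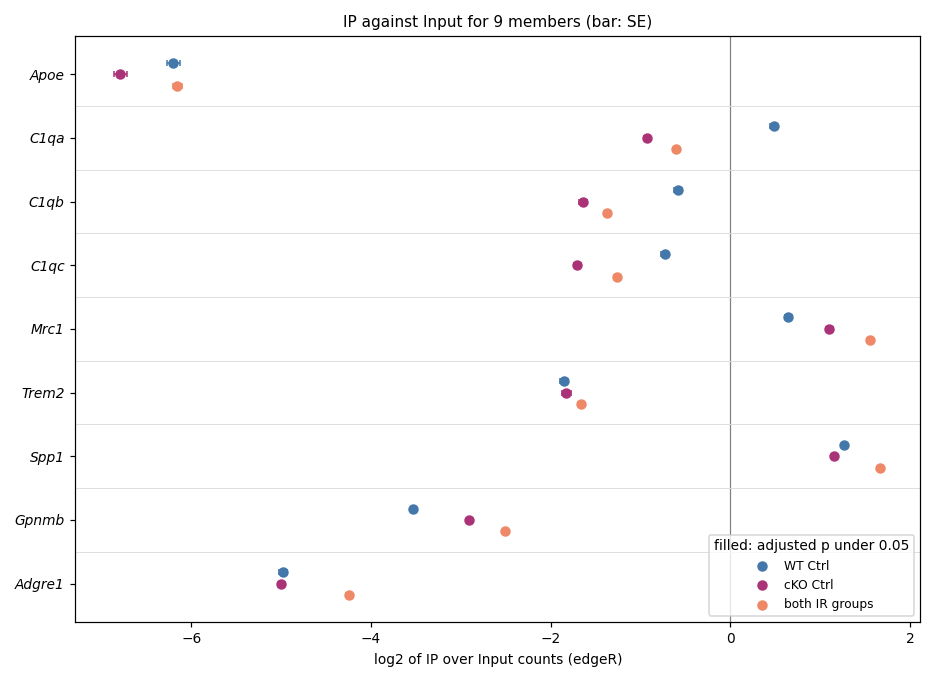
Log2 ratio of IP over Input counts (x axis) for 9 members (rows; Folr2 is left out for its low counts) in WT Ctrl, cKO Ctrl and the mean of both IR groups, shown by colour. Points are edgeR estimates with SE bars, mostly smaller than the points. Spp1 and Mrc1 lie above 0 in all 3, and Apoe, Adgre1, Gpnmb and Trem2 lie below 0 in all 3. C1qa lies above 0 in WT Ctrl and below 0 in cKO Ctrl and in the IR mean, which does not give either genotype by itself.

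The fitted ratios themselves differed between conditions. They set 2 library types against each other, and marker sums did not always differ the same way in both. From WT Ctrl to cKO Ctrl the mean neutrophil sum went from 2722 to 1190 CPM in Input and from 814 to 874 in IP. The macrophage sum went from 3063 to 3474 CPM in Input and from 1421 to 1238 in IP. Progenitor, eosinophil and mast cell sums were lower in cKO Ctrl in both. The part of this in the ratios was not tested. Comparing cKO Ctrl with WT Ctrl, the ratio was lower in cKO for C1qa (−1.41 ± 0.05, adjusted p = 2.8e-20), C1qb (−1.05 ± 0.06, adjusted p = 4.2e-15) and C1qc (−0.97 ± 0.06, adjusted p = 1.4e-14). For all 3 chains the Input level was higher and the IP level lower in cKO Ctrl than in WT Ctrl, without overlap: C1qc, for example, stood at 145, 138 and 156 CPM in WT Ctrl IP and at 94.6, 100.1 and 96.7 CPM in cKO Ctrl IP. Apoe also had a lower ratio in cKO (−0.59 ± 0.08, adjusted p = 1.8e-06). Gpnmb (0.62 ± 0.03, adjusted p = 8.2e-18) and Mrc1 (0.46 ± 0.05, adjusted p = 5.9e-08) had higher ratios in cKO Ctrl, and Spp1 differed little (−0.11 ± 0.03, adjusted p = 0.014). Trem2 (0.03 ± 0.06, adjusted p = 0.8) and Adgre1 (−0.02 ± 0.05, adjusted p = 0.89) did not pass the threshold, nor did Folr2 (−1.61 ± 1.55, adjusted p = 0.53). In this comparison 7 of 10 members were called, beside 22.6% of all genes, with medians of −0.35 for the members and 0.00 for all genes.

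Over both genotypes, the ratio was called higher in irradiated than in unirradiated tumors for 7 members. Folr2 is among these 7, but it had 0 to 5 counts per IP library and its ratio is not interpreted. The change was 0.74 ± 0.04 for Adgre1 (adjusted p = 2.4e-17), 0.71 ± 0.02 for Gpnmb (adjusted p = 3.6e-24), 0.68 ± 0.04 for Mrc1 (adjusted p = 3.6e-16) and 0.46 ± 0.02 for Spp1 (adjusted p = 5.6e-17). Smaller rises were found for Apoe (0.34 ± 0.06, adjusted p = 1.1e-05) and Trem2 (0.17 ± 0.04, adjusted p = 0.0016). C1qa (−0.38 ± 0.04, adjusted p = 8.2e-11) and C1qb (−0.26 ± 0.04, adjusted p = 5.3e-06) fell, and C1qc did not pass (−0.05 ± 0.04, adjusted p = 0.37). Together with Folr2, 7 members were called higher and 2 lower, beside 48.4% of all genes (25.3% higher and 23.1% lower). The members' median change was 0.40, and that of all genes was −0.01. The summed markers of neutrophils fell with irradiation in Inputs, from means of 2722 to 710 CPM in WT and 1190 to 567 in cKO. In IP they stood at 800.2 to 832 CPM in WT Ctrl, 856 to 885 in cKO Ctrl and 713 to 855 in the IR libraries. Eosinophil and mast cell sums fell from 24.1 to 2.20 CPM in WT Inputs and from 11.3 to 1.94 in cKO Inputs. In IP they were 29.9 in WT Ctrl, 19.8 in cKO Ctrl, 20.1 labelled WT IR and 21.3 labelled cKO IR. Progenitor sums were lower after irradiation in both library types. The part of cell composition in these ratios was not tested.

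Peaks gave the position of the antibody signal along 4 of the members. Consensus peaks are those that all 3 libraries shared, and they numbered 15 over C1qa, C1qb, Mrc1 and Spp1 in WT Ctrl, with 19 in cKO Ctrl, 27 in the libraries labelled WT IR and 20 in the group labelled cKO IR, the last 3 over Mrc1 and Spp1 only. Over all genes the groups had 12181, 10918, 9927 and 9056 consensus peaks in that order. Apoe, C1qc, Trem2, Gpnmb, Folr2 and Adgre1 had no peak in any of the 12 IP libraries. A gene without a called peak here had none past the authors' threshold, which does not show that its RNA lacks m6A.

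C1qa and C1qb carried peaks only in WT Ctrl. C1qa had 2 regions in the coding part of exon 3, with fold enrichments of 1.73 to 1.81 and of 1.67 to 1.79 in the 3 WT Ctrl libraries. C1qb had 1 region in exon 3, at 1.38 to 1.40-fold. The other 9 IP libraries had no peak over either gene. These folds are the authors' values at the summit, and they lay below most of those over Mrc1.

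Mrc1 had 24 peak regions with a consensus peak in at least 1 group, each over a different exon of its 30-exon transcript. In 11 regions the summit lay in coding sequence, and in 13 it lay in an intron no farther than 34 bases from the exon. Consensus peaks over Mrc1 numbered 10 in WT Ctrl, 16 in cKO Ctrl, 24 for the libraries labelled WT IR and 17 for those labelled cKO IR. Single WT Ctrl libraries had 12 to 15 peaks, below all others, which had 20 to 26. The highest fold stood at exon 15, at 15.1, 17.2 and 16.1 for the libraries labelled WT IR and at 13.4, 12.6 and 11.6 for those labelled cKO IR. There, 1 cKO Ctrl library also had a peak, at 12.3, while no WT Ctrl library had one. For the 9 regions found in all 12 libraries the median fold was 3.05 to 3.27 in WT Ctrl, 3.35 to 3.98 in cKO Ctrl, 3.71 to 4.60 for the libraries labelled WT IR and 3.35 to 4.12 for those labelled cKO IR. The IP level of Mrc1 was lowest in WT Ctrl, which had the fewest peaks, and highest in the group labelled WT IR, which had the most. The part of the IP level in the number of peaks was not tested.

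Spp1 had 4 such regions, all with the summit in coding sequence, in exons 2, 7 and 8. The region of exon 7 and the first of 2 regions of exon 8 were found in all 12 libraries, at median folds of 1.33 to 1.79. The second region of exon 8 was found in 8 libraries and was a consensus peak in cKO Ctrl only. The region of exon 2 was a consensus peak in the groups labelled WT IR and cKO IR, at folds of 3.20 to 4.11, and was also found in 1 WT Ctrl and 2 cKO Ctrl libraries. In WT Ctrl the ratio of IP over Input was 1.27 for Spp1 and 0.64 for Mrc1, whereas the fold over the regions found in all 12 libraries was 1.39 to 1.69 for Spp1 and 1.67 to 5.86 for Mrc1.

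**Figure D5:**
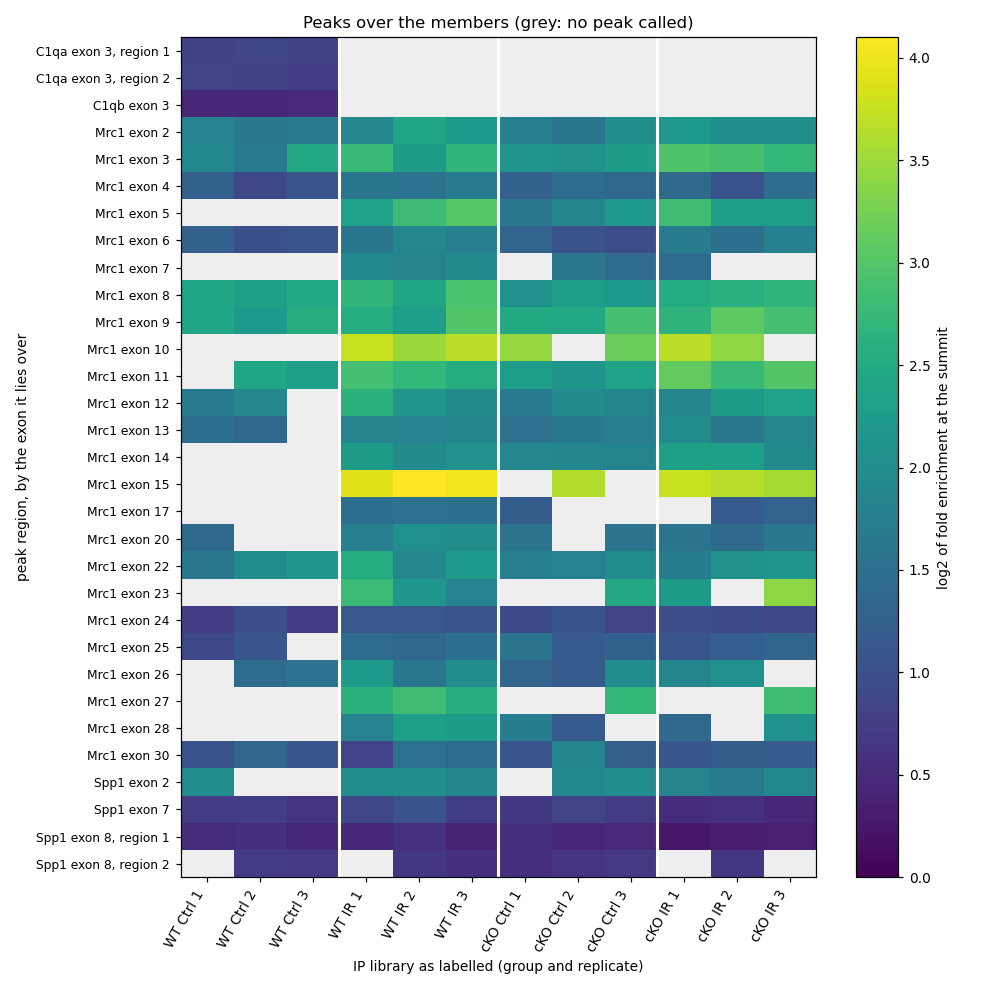
Log2 of the authors' fold enrichment at the summit (colour) for each of the 31 regions with a consensus peak over the members (rows, named by gene and exon) in the 12 IP libraries as labelled (columns). Grey cells had no peak. C1qa and C1qb have peaks only in the 3 WT Ctrl libraries. Exon 15 of Mrc1 is the brightest row, with no peak in WT Ctrl and a peak in 1 cKO Ctrl library.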

How the data were processed

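CD11b+ cells from MC38 tumors were profiled by MeRIP-seq in 24 libraries (8 groups of 3, assigned by the labels). After trimming (Trimmomatic 0.39) the authors mapped reads strand-specifically to mm10 by HISAT with GENCODE vM19. HTSeq gave the deposited raw counts for each gene. The authors called peaks in each IP library and strand with MACS2, and the deposited peak lists give the fold enrichment, a ratio over a control library not stated in the methods, and −log10 q-values. The deposited peak score was not used.

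Here, counts were tested with the quasi-likelihood test of edgeR 4.0.16 (R 4.3.3) with TMM scaling, after removing genes with fewer than 3 libraries reaching 10 counts (leaving 16090 genes over 12 Inputs, 17373 over all 24 libraries), and calls were made at a Benjamini-Hochberg adjusted p under 0.05 over all genes tested. All groups entered a common fit, without covariates. DESeq2 1.42.0, other scalings and filters, a replicate block and leaving out each library were alternatives. CPM were scaled by TMM within the Inputs and within the IPs. Summary lines of HTSeq were left out of library totals. Reads outside genes were 4.10 to 6.80% in Inputs and 2.97 to 3.73% in IPs. These are shares of the sum of gene counts, reads outside genes and ambiguous reads. Peaks belonged to a member by summit and strand, and consensus peaks overlapped by at least 1 bp in 3 replicates. Exons and sequences were read from GENCODE vM21 and GRCm38. Scripts were tested on simulated counts. The members, the companion lists and the marker lists were chosen with earlier results of these data known. The rule for named genes was all members, given singly or in counts, and from each companion list at most 4 called genes per comparison, those of largest change with a mean of at least 50 counts. Values of a companion gene that this rule would name and a sequence are not reported here.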

Additional observations from a re-analysis of the deposited data

Results flagged for a closer look

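Some members changed by different amounts in the groups compared, by a test of the difference itself. The irradiation effect on Input counts differed between cKO and WT for Mrc1 (−0.57), Trem2 (0.35) and Gpnmb (−0.10), as log2 differences. The IP over Input ratio differed between cKO Ctrl and WT Ctrl for C1qa (−1.41), C1qb (−1.05), C1qc (−0.97), Apoe (−0.59), Spp1 (−0.11), Mrc1 (0.46) and Gpnmb (0.62). Between the IR and the Ctrl groups of both genotypes the ratio differed for Adgre1 (0.74), Gpnmb (0.71), Mrc1 (0.68), Spp1 (0.46), Apoe (0.34), Trem2 (0.17), C1qb (−0.26) and C1qa (−0.38). Folr2 also passed this test (3.44), on 0 to 5 counts per IP library, and its value depends on how counts of 0 are treated.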

How the results depend on the processing

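The same-number libraries of different groups did not deviate together (84 pairs, r from −0.035 to 0.04), and pairs of other numbers were alike (r from −0.039 to 0.038). This gave no sign of pairing by replicate number, but a low correlation does not show that the libraries were unpaired. With the replicate block the numbers of members called were 6, 9, 7, 8 and 3 in the Input comparisons in the order reported and 10, 10, 10, 7 and 9 in the IP over Input comparisons, as without it. Leaving out a library gave 6 to 8 members called for irradiation in WT, 7 to 9 in cKO, 6 to 8 and 8 to 9 between genotypes without and with irradiation, and 2 to 6 for the interaction. Without WT IR Input replicate 1, Apoe reversed in WT IR against WT Ctrl (range over the fits without a library −0.0408 to 0.0975) and in cKO IR against WT IR (−0.122 to 0.0162). Adgre1, near 0 in the interaction, ranged from −0.037 (without that library) to 0.0448, and turned to −0.0019 without cKO Ctrl replicate 3 and to −0.0016 with a minimum of 50 counts. In the change of ratio between Ctrl genotypes Adgre1 was 0.0012 with RLE size factors and with DESeq2 and −0.0464 to 0.0105 over the fits without a library, and Trem2 was −0.0021 to 0.0451. Folr2 reversed, uncalled, with ranges of −0.0316 to 0.402 (irradiation in cKO), −0.47 to 0.401 (genotype, Ctrl) and −2.23 to 0.198 (change of ratio). C1qa in the group labelled cKO IR was 0.0115 with scaling on genes without a peak. With only the 6 Inputs of the contrast, 3870 genes differed between cKO Ctrl and WT Ctrl, against 2520. Without a count filter Mrc1 passed in WT IR (adjusted p = 0.043), C1qb passed in the interaction (0.016) and Gpnmb did not (0.077). With a fold of at least 4, consensus peaks over the members fell to 2, 8, 4 and 7 (WT Ctrl, labelled WT IR, cKO Ctrl, labelled cKO IR), over 1 member. With the summit within an exon they were 14, 12 and 11 in the last 3. The median Input level per kilobase was 161 CPM per kb with merged exons and 196 with the longest transcript. Causes of these shifts were not tested.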
